A study of Mus musculus with 16 samples.

Results

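A set of 10 genes of the transforming growth factor beta (TGF-beta) and myostatin pathway was followed in mouse fast muscle fibres, of 23222 gene symbols in the 4 deposited tables together. They were chosen by symbol: the ligands Tgfb1, Tgfb2 and Tgfb3, the latent binding protein gene Ltbp4, the myostatin gene Mstn, the receptor genes Tgfbr1, Tgfbr2 and Acvr2b, and the SMAD genes Smad3 and Smad7. All 10 had rows in every table, and 9 were expressed well enough to be tested. Fibres came from the extensor digitorum longus, a fast hindlimb muscle, of male C57BL/6 mice, and mononucleated cells adhering to them had been stripped off before RNA extraction. The study crossed age with voluntary exercise, giving young controls (4 months old, no wheel running), young runners (4 months, 5 weeks of voluntary wheel running), old controls (22 months) and old runners (22 months, 5 weeks of wheel running), with 4 libraries in each group. The labels name no transgene, deletion or drug in any group. Separate animals are not named for the libraries, so every p-value measures only the spread between these libraries, which may be technical.

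TGF-beta ligands are secreted in a latent form, held inactive by their own propeptide and tied to the extracellular matrix by latent TGF-beta binding proteins until they are released. Active TGF-beta binds the type II receptor TGFBR2, which recruits the type I receptor TGFBR1 (ALK5), and myostatin, a brake on muscle mass made by the fibres themselves, binds the activin type II receptors, of which ACVR2B is one. Both branches end in phosphorylation of SMAD2 and SMAD3, which move to the nucleus, and SMAD7 is induced by the pathway and blocks it at the receptor.

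Promoter sequence is shown for 1 of the 3 start regions that RefSeq gives for Ltbp4, whose difference in young runners passed the test below, and for Mstn, whose level per length of transcript was the highest of the 10. Both were taken from RefSeq for GRCm38.p6, the assembly also called mm10, and are printed 5′ to 3′ on the gene's strand. Capitals mark matches, on either strand, to the SMAD-binding letters CAGAC, the E-box CANNTG bound by myogenic helix-loop-helix factors, or TATAAA; the MEF2 motif was searched as well. The Ltbp4 window, the farthest upstream of the 3, is chr7:27337693-27337862 (minus strand), cut to 170 bases that lie outside annotated exons, and the Mstn window is chr1:53061390-53061639 (plus strand), 250 bases.
Ltbp4: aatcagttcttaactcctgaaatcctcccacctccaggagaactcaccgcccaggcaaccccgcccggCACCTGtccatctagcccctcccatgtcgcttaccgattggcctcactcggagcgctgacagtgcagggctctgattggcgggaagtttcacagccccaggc
Mstn: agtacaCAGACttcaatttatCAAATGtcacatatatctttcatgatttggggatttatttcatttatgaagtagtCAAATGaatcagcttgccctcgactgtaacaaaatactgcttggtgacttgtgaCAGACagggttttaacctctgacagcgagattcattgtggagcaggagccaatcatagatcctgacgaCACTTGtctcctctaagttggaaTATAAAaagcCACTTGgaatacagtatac
The Ltbp4 window held 1 E-box, 182 bases before the start site at 27337612, and no match to the other motifs. The other Ltbp4 windows, not printed, lie before start sites at 27333648 and 27333663 and overlap each other; the former held 1 E-box (215 bases before its start) and the latter 2 (239 and 200), again with no other match. The Mstn window held 4 E-boxes, at 229, 174, 52 and 19 bases before the start site, 2 CAGAC matches and 1 TATAAA at 29 bases, and none of these matches overlapped another. An E-box was present in 53.5% of 32851 RefSeq promoters over a window of 170 bases and in 66.2% over 250 bases. CAGAC was in 42.2%, TATAAA in 12.4% and the MEF2 motif in 2.92% of the windows of 250 bases, so of the matches in Mstn the TATAAA was the least common. These are matches of letters, and binding was not measured.

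Depth was 30696736 to 67428801 reads per library, and libraries of one group correlated at r = 0.912 to 0.983 over genes. Fibre markers (8 of 8 detected, among them Acta1, Ckm and Myh4) summed to 120000 to 194000 RPM (reads per 1000000 of the library) in every library, and satellite cell markers to 68.4 to 191 RPM. In group means that sum came mostly from Sdc4 (80.9 to 135 RPM) and Cdh15 (21.7 to 28.7), with Myf5 at 0.933 to 2.65 and Pax7 at 0 to 0.0866. Markers of connective tissue, endothelial, red and Schwann cells were low but differed between groups, and their values are given with the results of running. Libraries carry the names of their table columns here: Yc4, Yc5, Yc7 and Yc8 for young controls, Y1ex to Y4ex for young runners, Oc1 to Oc4 for old controls and O1ex to O4ex for old runners. Control columns and the columns O4ex and Y4ex could be tied to a group by name but not to one sample. Levels in RPM come from reads recovered out of the deposited values, and differences are in log2 units of the deposited values, a scale that shrinks the change of weakly expressed genes.

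Per length of transcript the myostatin gene led the set. Over the 16 libraries Mstn averaged 50.3 RPKM (RPM divided by the exon length in kilobases), Smad3 18.9, Tgfb3 11.6, Tgfb2 9.12 and Tgfbr1 8.04. Acvr2b averaged 4.07 RPKM, Tgfbr2 3.74 and Smad7 2.93, while Ltbp4 reached 0.93 and Tgfb1 0.218. Of the 3 ligand genes named for TGF-beta, the fibres therefore carried mostly Tgfb3 and Tgfb2 message and little Tgfb1. Mstn was also the steadiest gene, its highest library standing 1.99 times above its lowest, against 6.43 times for Tgfbr1 and 6.58 times for Smad7.

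**Figure D1:**
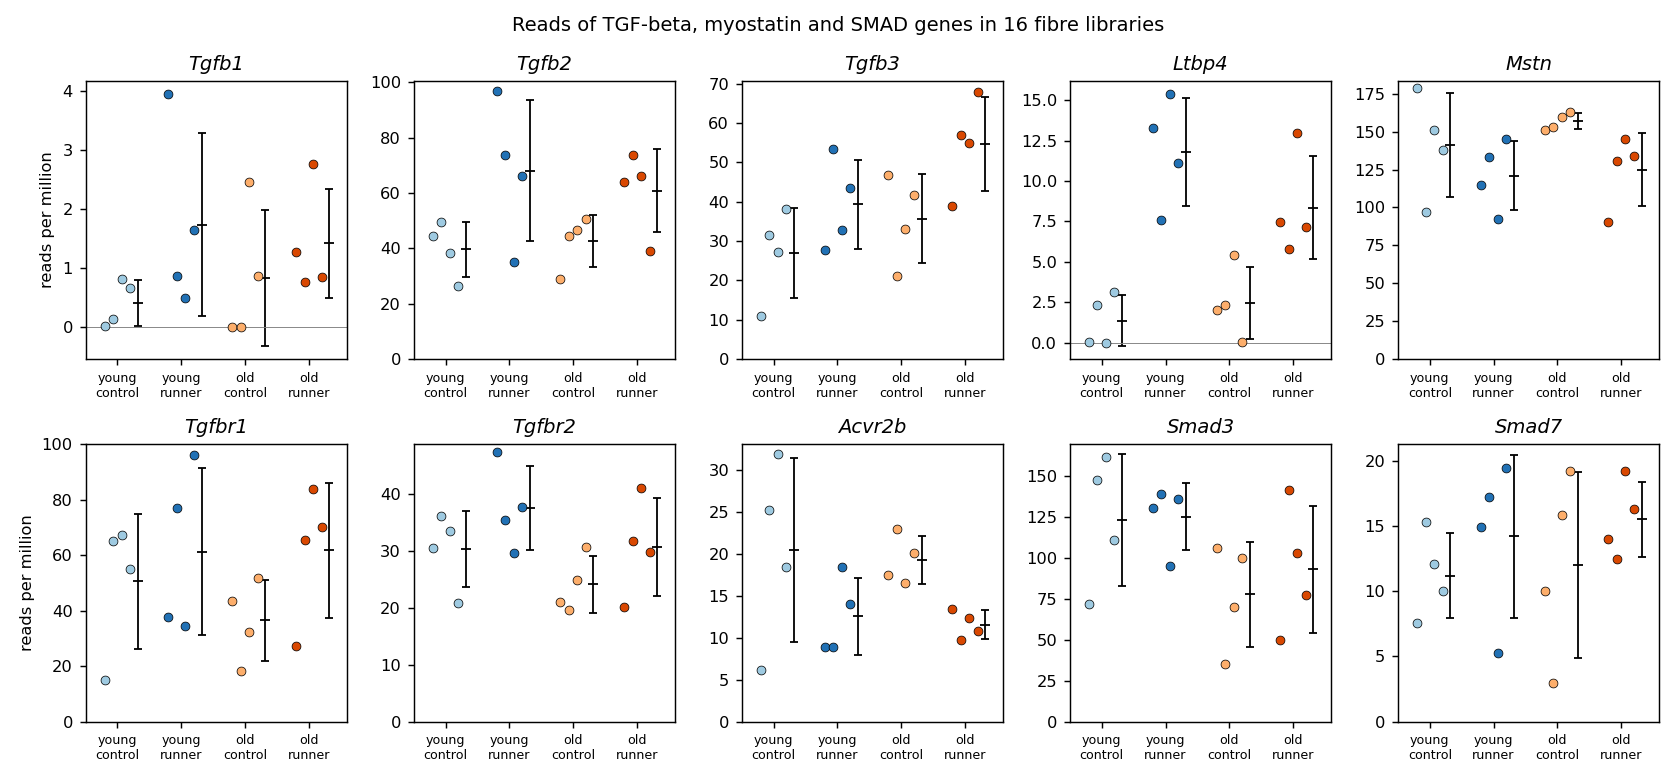
Level (RPM) of each of the 10 genes in every library (points; the vertical axis differs by panel), with group mean ± SD (bars, n = 4) for young controls, young runners, old controls and old runners. Ltbp4 is higher in all 8 runner libraries than in the controls of the same age, while Mstn and Acvr2b are lower in all 4 old runners than in the 4 old controls.

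Running in young mice was accompanied by a higher level of 1 of the 9 tested genes, the latent binding protein gene Ltbp4, and by no call among ligands, receptors or SMADs. Of all 10624 genes tested, 0.762% passed the same threshold (adjusted p under 0.05, limma with Benjamini-Hochberg adjustment over all genes). An unadjusted p under 0.05 was reached by 2 of the 9, against 17.4% of all genes. Differences were positive for 7 of the 9 genes, with a median of 0.35 on the log2 scale against 0.01 over all genes. With each library left out, that median of the 9 genes ran from 0.132 (without Yc4) to 0.527 (without Y3ex). Without Yc4 the differences of Tgfbr1 (-0.05) and Smad3 (-0.06) were negative and that of Mstn (0.02) was positive. Groups did not overlap for Ltbp4 alone, against 11.5% of all genes. Young runners also differed from young controls in markers of other cells: mean summed levels were 151 against 8.87 RPM for fibro-adipogenic progenitors and 9.34 against 3.17 for red cells. Endothelial sums were 31.7 to 133 RPM in young runners and 6.73 to 25.0 in young controls (8 of 8 tested genes positive, median difference 1.36, 0 called by limma). Schwann cell sums were 7.39 to 11.0 RPM in young runners and 3.46 to 6.06 in young controls (2 of 3 tested genes positive, 0 called). The pericyte gene Rgs5 averaged 26.3 against 2.86 RPM, while the sum of its smooth muscle and pericyte list was set by Des, which fibres express (5030 against 4120). The part of these cells in the results of young running was not tested.

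Running in old mice gave no call among the 9 genes by limma, with adjusted p from 0.142 to 0.605, where 0.128% of 9379 genes passed. By unadjusted p, 5 of the 9 were under 0.05, against 17.4% of all genes, and voom on the recovered reads called none. Differences were again positive for 7 and negative for Mstn and Acvr2b, with a median of 0.42 against 0.03 over all genes. Runners and controls did not overlap for 3 of the 9 (Ltbp4 higher, Mstn and Acvr2b lower), where 10.2% of all genes did not overlap. In old runners and old controls the mean summed markers were 71.4 and 24.2 RPM for fibro-adipogenic progenitors, 51.9 and 50.9 for endothelial cells and 11.6 and 9.57 for red cells, and Rgs5 averaged 28.9 and 15.4. For a gene whose groups do not overlap, the exact 2-sided permutation test gives its smallest possible p with 4 libraries against 4, 0.0286.

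**Figure D2:**
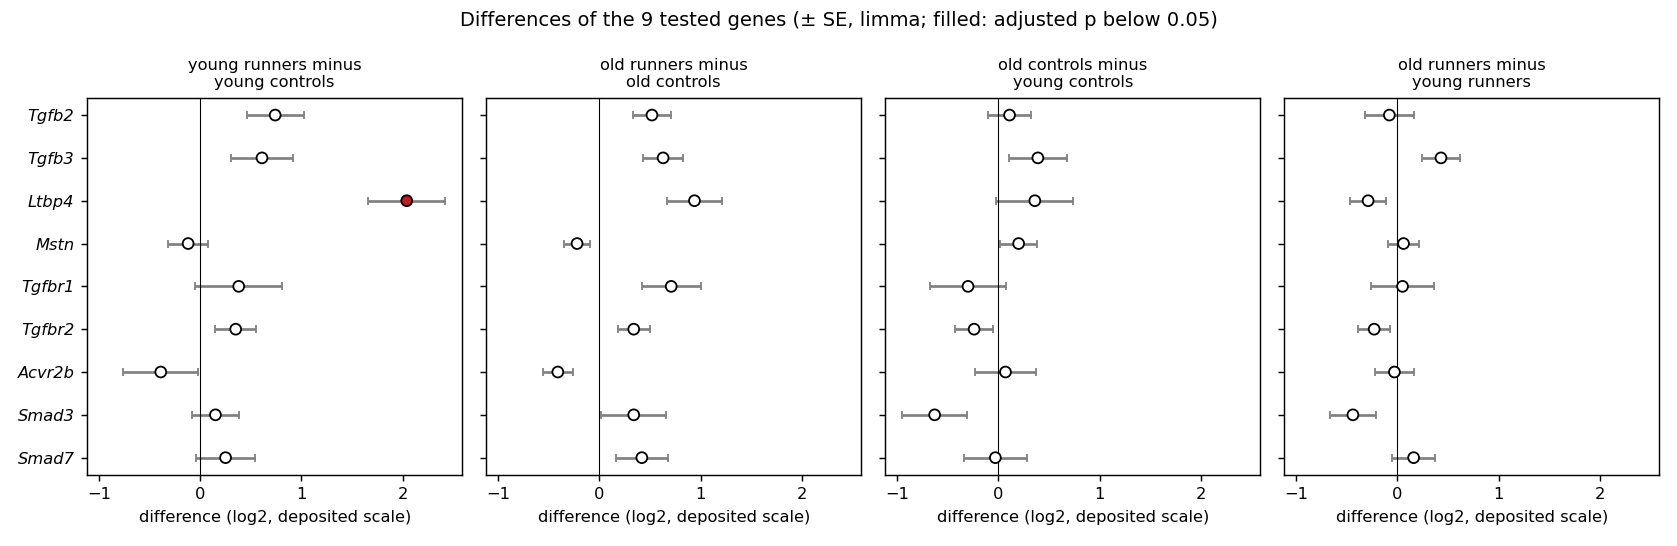
Difference of each of the 9 tested genes (log2, deposited scale, ± SE from limma) in 4 comparisons; a filled point has an adjusted p under 0.05. Ltbp4 in young runners is the one filled point (2.04), and in both running panels 7 genes lie right of 0 and Mstn and Acvr2b lie left of it.

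Ltbp4 encodes the latent TGF-beta binding protein 4, a matrix protein that anchors latent TGF-beta and is a known modifier of muscular dystrophy in mice. The gene lies at chr7:27305136-27337692 (mm10, GENCODE, minus strand) with no other gene across it. In young controls it had 0.0451 RPM in Yc4, 2.35 in Yc5, 0 in Yc7 and 3.13 in Yc8. In young runners it had 13.3, 7.59, 15.4 and 11.1 RPM in Y1ex to Y4ex, so every runner stood above every control. Yc4 held 2 Ltbp4 reads and Yc7 none, a count that allows up to 0.049 RPM (3 reads), so part of the spread among young controls is between libraries with and without any signal. Group means were 11.8 ± 3.33 RPM in runners and 1.38 ± 1.6 in controls (SD, n = 4), a ratio of 8.59 that ran from 6.44 without Yc7 to 14.9 without Yc8. The test gave a difference of 2.04 ± 0.38 (SE, log2; adjusted p = 0.0451, limma). The call is close to the threshold: among 16 alternative settings the adjusted p ranged from 0.00497 to 0.148 and was under 0.05 in 6, and leaving out any library except Yc4 raised it above 0.05, up to 0.135. The 4 runners alone would have carried Ltbp4 past the filter on low values. The 2 controls that met it fell short of the 4 libraries needed, so entry into the test depended on the runners. The same held in old mice, with 4 runners and 2 controls.

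In old mice the levels of Ltbp4 were 2.04, 2.36, 5.42 and 0.0265 RPM in Oc1 to Oc4. Old runners had 7.46, 5.8, 13.0 and 7.15 RPM in O1ex to O4ex. The lowest runner stood just above the highest control, and Oc4 held a single read. Means were 8.36 ± 3.18 RPM in runners and 2.46 ± 2.23 in controls (SD, n = 4), a ratio of 3.39 (2.55 without Oc4 to 5.66 without Oc3), with a difference of 0.94 ± 0.27 (SE, log2) that did not pass (adjusted p = 0.142, limma; 0.0864 to 0.337 over the alternatives). The effect in old minus that in young mice was -1.10 ± 0.49 (SE, adjusted p = 0.731, limma), so a difference of the running effect between ages was not established. The 2 effects were measured above unlike floors, 7.69 in old and 6.73 in young mice. Low levels are shrunk unequally by them, so the size of this value depends on the scale (-2.62 to -0.83 over the alternatives).

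Fibro-adipogenic progenitors are connective tissue cells that lie between fibres. The mean of their summed markers, like that of Ltbp4, was higher in runners than in controls at both ages. All 9 markers of the list were in the tables, and their summed level was 0.316 to 15.7 RPM in young controls, 80.0 to 271 in young runners, 5.72 to 49.5 in old controls and 42.8 to 92.4 in old runners. Gsn and Dcn made up most of it, with group means of 77.2 and 39.1 RPM in young runners against 4.35 and 1.75 in young controls. The defining surface marker Pdgfra was at 0 in all 8 old libraries and averaged 0.873 RPM in young runners. Differences were positive for all 6 markers tested in young mice and all 4 tested in old mice. Col1a2, not tested in old mice, averaged 1.47 RPM in old runners and 1.95 in old controls. The lowest Ltbp4 levels (Yc4, Yc7 and Oc4) fell in the 3 libraries with the lowest marker sums, 0.316, 5.91 and 5.72 RPM. The highest Ltbp4 level, 15.4 RPM in Y3ex, came with the lowest marker sum of the young runners, 80.0 RPM. Y1ex had the highest sum, 271 RPM, and 13.3 RPM of Ltbp4. Whether these cells had a part in the Ltbp4 result was not tested. In bulk RNA of this kind, fewer cells of a type and less RNA per cell cannot be told apart.

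**Figure D3:**
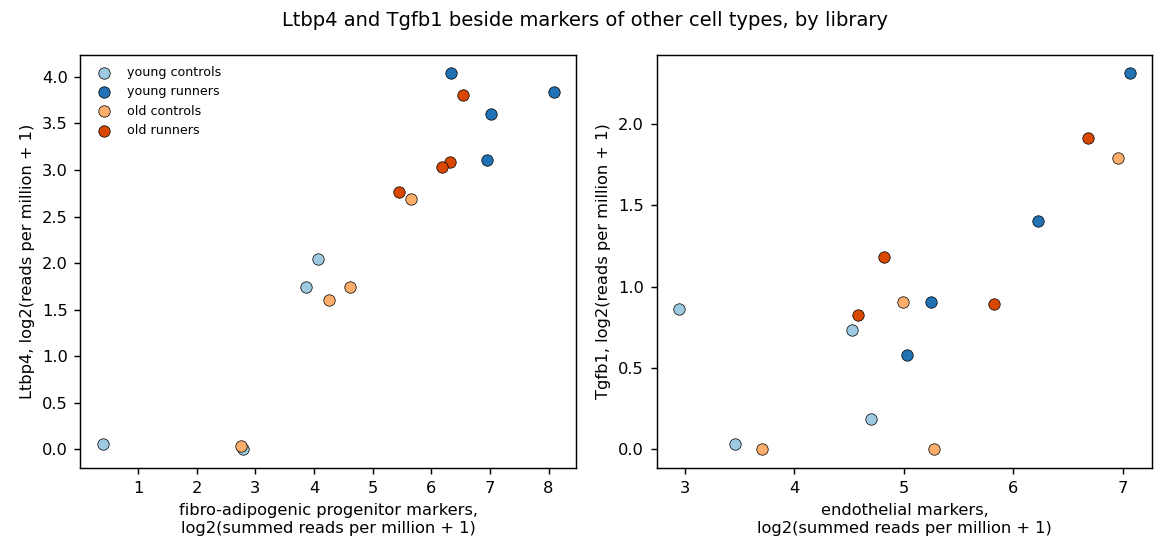
Left: Ltbp4 against the summed fibro-adipogenic progenitor markers; right: Tgfb1 against the summed endothelial markers; both axes are log2(RPM + 1) and each point is 1 of the 16 libraries, coloured by group. Libraries with the lowest fibro-adipogenic sums have Ltbp4 near 0, and the 3 libraries with the highest endothelial sums have the highest Tgfb1.

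Tgfb1, the most studied ligand and made by many immune and endothelial cells, was nearly absent and was not tested. Young controls had 0.0226, 0.137, 0.816 and 0.663 RPM (Yc4, Yc5, Yc7, Yc8) and young runners 3.96, 0.872, 0.494 and 1.65 (Y1ex to Y4ex). Old controls had 0, 0, 2.46 and 0.874 RPM (Oc1 to Oc4) and old runners 1.27, 0.771, 2.76 and 0.857 (O1ex to O4ex). Groups overlapped at both ages, and the 0 reads in Oc1 and Oc2 allow up to 0.0636 and 0.0581 RPM. Its highest libraries were Y1ex, O3ex and Oc3, one each from 3 groups. These also had the highest summed endothelial markers, 133, 102 and 123 RPM, where the other libraries lay between 6.73 and 73.9. A part of endothelial RNA in the Tgfb1 values was not tested.

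Tgfb2, the ligand gene second to Tgfb3 per length, stood at 29.1, 44.6, 46.6 and 50.7 RPM in Oc1 to Oc4 and at 64.1, 73.7, 66.3 and 39.1 in O1ex to O4ex. Of the 4 old runners 3 exceeded all old controls and O4ex lay among them. The difference was 0.52 ± 0.19 (SE, log2; adjusted p = 0.209, limma). Young controls had 44.6, 49.6, 38.3 and 26.5 RPM (Yc4, Yc5, Yc7, Yc8), and young runners 97.0, 73.8, 35.1 and 66.3 (Y1ex to Y4ex). Here too 3 of 4 runners were above every control, with Y3ex inside their range, and the difference was 0.74 ± 0.28 (adjusted p = 0.212). Exons of Tgfb2 (chr1:186622792-186705989, mm10, minus strand) overlap the antisense gene Gm29491, and without stranded libraries reads of the pair cannot be told apart.

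Tgfb3, whose product is a ligand of the same receptors, had the highest mean in old runners. Old controls had 46.8, 21.0, 33.0 and 41.8 RPM, and old runners 38.8, 57.0, 54.8 and 67.8. All old runners but O1ex were above every old control, for a difference of 0.63 ± 0.2 (SE, log2; adjusted p = 0.167, limma). In young mice controls had 11.0, 31.6, 27.3 and 38.0 RPM and runners 27.6, 53.4, 32.9 and 43.4, so the groups overlapped (0.61 ± 0.31, adjusted p = 0.334). Without Yc4, the lowest control, the young difference was 0.31 ± 0.22. Tgfb3 (chr12:86056745-86079041, minus strand) lies across Ttll5 on the opposite strand, and its exons overlap the transcripts Gm37804 and Gm48008, which these unstranded counts cannot separate from it.

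Mstn was the gene with the tightest group. Old controls had 151, 153, 160 and 163 RPM in Oc1 to Oc4, a mean of 157 ± 5.46 (SD, n = 4). Old runners had 90.1, 131, 145 and 134 RPM in O1ex to O4ex, a mean of 125 ± 24.1, and each lay below all old controls. The difference was small, -0.22 ± 0.13 on the log2 scale, and did not pass (adjusted p = 0.392, limma; exact permutation p = 0.0286, unadjusted). Without O1ex, the lowest runner, it was -0.12 ± 0.11. Young controls had 179, 96.8, 151 and 138 RPM and young runners 115, 133, 92.5 and 145. These groups overlapped, with a difference of -0.12 ± 0.2 (adjusted p = 0.792) that became 0.02 ± 0.18 without Yc4, the highest control. Mstn lies at chr1:53061640-53068079 on the plus strand, with no overlapping gene in the annotation.

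Among the receptors, Acvr2b, a type II receptor for myostatin and activins, was lower in old runners than in any old control. Its levels were 17.5, 23.0, 16.6 and 20.2 RPM in Oc1 to Oc4 and 13.5, 9.7, 12.4 and 10.8 in O1ex to O4ex. Means were 11.6 ± 1.69 RPM in runners and 19.3 ± 2.9 in controls (SD, n = 4), and the difference of -0.41 ± 0.15 (SE, log2) did not pass (adjusted p = 0.201, limma). Mstn and Acvr2b were thus the 2 members that stood lower in old runners, and neither reached the threshold. Acvr2a, an activin type II receptor gene outside the set, went the other way without a call. It averaged 45.4 RPM in old runners and 32.7 in old controls (0.44 ± 0.27, adjusted p = 0.424, limma). In young runners and controls it averaged 53.7 and 37.7 RPM (0.55 ± 0.28, adjusted p = 0.334). Acvr2a was chosen for naming after its values were seen. In young mice controls had 6.23, 25.3, 31.9 and 18.5 RPM (Yc4, Yc5, Yc7, Yc8) and runners 8.93, 8.9, 18.5 and 14.0. The control Yc4 was below every runner while the other 3 were at or above the highest of them, and the difference moved from -0.39 ± 0.37 (adjusted p = 0.612) to -0.75 ± 0.27 without Yc4 (adjusted p = 0.179). Acvr2b lies at chr9:119402118-119434995 (plus strand), where the antisense gene Gm47320 overlaps it outside its exons.

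Tgfbr1, the type I receptor that phosphorylates SMAD2 and SMAD3, ranged widely inside groups (chr4:47353222-47414931, plus strand). Old controls had 43.6, 18.3, 32.3 and 51.7 RPM and old runners 27.2, 65.5, 83.7 and 70.3. All old runners but O1ex were above every old control, and the difference was 0.71 ± 0.29 (SE, log2; adjusted p = 0.238, limma). Young controls had 14.9 RPM in Yc4 and 54.9 to 67.3 in the other 3, and young runners 34.5 to 96.1. These groups overlapped (0.38 ± 0.43, adjusted p = 0.676), and without Yc4 the difference was -0.05 ± 0.3. Tgfbr2 (chr9:116084293-116175360, minus strand), the ligand-binding type II receptor, was higher in runners on average at both ages, with 37.5 ± 7.37 against 30.3 ± 6.66 RPM in young and 30.7 ± 8.57 against 24.1 ± 4.95 in old mice (SD, n = 4). Its groups overlapped, and the differences were 0.35 ± 0.2 (adjusted p = 0.383) and 0.34 ± 0.16 (adjusted p = 0.306).

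The SMAD genes gave no call with running at either age by limma. Smad3 (chr9:63646767-63757994, minus strand), the receptor-activated SMAD, had 123 ± 40 RPM in young controls and 125 ± 20.2 in young runners, and 77.6 ± 32.2 in old controls and 92.9 ± 38.7 in old runners (SD, n = 4). Its lowest library was Oc2 with 35.4 RPM and its highest Yc7 with 161. Running differences were 0.15 ± 0.23 (adjusted p = 0.774) in young and 0.34 ± 0.32 (adjusted p = 0.605) in old mice. Without Yc4 the young value was -0.06 ± 0.17, and the old value was 0.07 ± 0.27 without Oc2 and 0.13 ± 0.31 without O2ex. Smad7, the inhibitory SMAD, had 11.2 ± 3.27 and 14.2 ± 6.22 RPM in young controls and runners, and 12.0 ± 7.14 and 15.5 ± 2.9 in old controls and runners. Its differences were 0.25 ± 0.29 (adjusted p = 0.688) and 0.42 ± 0.26 (adjusted p = 0.446), with overlapping groups, and the old value was 0.13 ± 0.17 without Oc2.

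Whether running acted differently by age was tested for each gene, and none of the 9 passed (adjusted p from 0.731 to 0.997, limma), as 0.0% of 10646 genes did. Ltbp4 was the one member among 715 genes with an unadjusted p under 0.05, and voom on the recovered reads called 0 members. For the 8 genes other than Ltbp4, old minus young effects lay between -0.22 (Tgfb2, SE 0.36) and 0.33 (Tgfbr1, SE 0.57).

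Age itself moved none of the 9 past the threshold. Between controls, adjusted p ranged from 0.482 to 0.978 (limma), 0 members had an unadjusted p under 0.05, and 0.112% of 9831 genes passed. No member's control groups were apart, against 7.0% of all genes. The largest difference was that of Smad3, -0.63 ± 0.32 (adjusted p = 0.482), from 123 to 77.6 RPM, with old controls at 106, 35.4, 69.9 and 99.6 RPM and young controls at 71.8, 147, 161 and 111. Between runners, adjusted p ranged from 0.982 to 1.0, 0.0213% of 9387 genes passed and 3.38% did not overlap, with 0 members among either. Tgfb3 was the one member with an unadjusted p under 0.05 there (0.43 ± 0.19 higher in old runners; adjusted p = 0.982, limma), and Smad3 stood at -0.44 ± 0.23 (adjusted p = 0.986). Voom called 0 members in either comparison of ages. The comparisons share groups with those of running and are not independent of them.

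In the order of group means, neighbours mostly lay closer than the pooled SD. Ltbp4 ran from young runners over old runners and old controls to young controls, and only its last step was within the spread. Tgfb2 had the 2 runner groups on top, 7.2 RPM apart, then a step of 18.0 RPM down to old controls (pooled SD 12.5). Acvr2b had the 2 control groups on top, 1.2 RPM apart, then a step of 6.7 RPM down to young runners (pooled SD 3.85). Tgfb3 was highest in old runners, 15.3 RPM above young runners (pooled SD 11.7), and Tgfbr2 was lowest in old controls, 6.2 RPM under young controls (pooled SD 5.87). For Tgfb1, Mstn, Tgfbr1, Smad3 and Smad7 no pair of neighbours was further apart than the pooled SD.

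Another 95 genes of the pathway were listed by role, of which 92 were in the tables. In young mice 63 were tested, and 3 were higher and 1 lower in runners (limma, adjusted p under 0.05), where 0.762% of all genes tested passed. Of the 3, Fstl1 and Col1a2 met the filter on low values through the 4 runners alone and could be tested only because they were high there, so the count is a description and supports nothing. The median difference was 0.25, against 0.01 over all genes. In old mice 53 were tested and 0 passed, where 0.128% of all genes did, with a median of 0.31 against 0.03. Voom called 1 in young mice. None passed among 54 between controls (median -0.14) or 57 between runners (median -0.05).

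Of the latency, activation and antagonist genes, Dcn and Fstl1 rose in young runners. Dcn encodes decorin, a matrix proteoglycan that binds TGF-beta. It had 68.2, 30.0, 29.5 and 28.9 RPM in Y1ex to Y4ex against 0.0226, 4.5, 0.261 and 2.22 in young controls (3.25 ± 0.4 log2, adjusted p = 0.019). Fstl1, a secreted follistatin-like protein, had 6.11, 2.92, 6.96 and 2.24 RPM against 0 to 0.417 (1.69 ± 0.28, adjusted p = 0.0361). Every young runner lay above every young control for both genes, and Dcn is itself one of the fibro-adipogenic markers given above. Old runners had 19.4 ± 5.81 RPM of Dcn and old controls 5.37 ± 5.75, again with no overlap. That difference of 1.28 ± 0.28 did not pass (adjusted p = 0.0964, limma). Fstl1 averaged 1.47 RPM in old runners and 0.939 in old controls and was not tested there. Fstl1 passed the filter on low values through the 4 runners alone, so it could not have been tested unless it was high there. In young mice Dcn met the filter in 4 runners and 2 controls, so its entry also depended on the runners. The Dcn call was lost without Y2ex, Y4ex or Yc7 (adjusted p up to 0.103 over all alternatives) and the Fstl1 call without Yc5, Yc7 or Yc8 (up to 0.133). The myostatin antagonist gene Fst stood at 6.82 ± 1.82 RPM in young runners and 7.52 ± 2.6 in young controls, a difference of -0.02 ± 0.23; it was chosen for naming after its values were seen.

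Of the response genes, 1 of the TGF-beta list was higher and 1 of the BMP list lower in young runners. Col1a2, a fibrillar collagen chain induced by TGF-beta in connective tissue cells, had 7.92, 6.7, 5.3 and 6.74 RPM in young runners and 0 to 0.0379 in young controls. That difference of 2.18 ± 0.2 (adjusted p = 0.0038) passed in all 12 alternatives that could be fitted, but like Fstl1 the gene met the filter through the runners alone, and like Dcn it is a fibro-adipogenic marker. Of 8 TGF-beta response genes tested it was the one call. Old runners had 1.47 ± 1.55 RPM of Col1a2 and old controls 1.95 ± 1.67, and their difference was not tested. Id2, a bone morphogenetic protein (BMP) response gene that blocks helix-loop-helix factors, fell in young runners. It had 34.6, 27.7, 32.4 and 15.7 RPM in Y1ex to Y4ex and 88.6, 69.2, 119 and 153 in Yc4, Yc5, Yc7 and Yc8, with no overlap. The difference of -1.72 ± 0.28 (adjusted p = 0.0357) was past the threshold in 7 of 16 alternatives, and it was kept without Yc4 but lost without each of the other 7 libraries (adjusted p up to 0.134). Old controls had 48.5 ± 12.7 RPM of Id2 and old runners 31.9 ± 19.8 (-0.49 ± 0.3, adjusted p = 0.431). The difference between ages did not pass for Id2 (adjusted p = 0.652, limma), Col1a2 (0.116), Dcn (0.474) or Fstl1 (0.525). Fstl1 and Col1a2 entered that comparison through the 4 young runners alone, and in old mice only 2 libraries met the filter for each. Their values there lie near unlike floors, 7.69 in old and 6.73 in young mice, so the comparison decides nothing for them.

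In old mice the smallest p among SMADs and their regulators belonged to Ski and Map3k7. Ski, a nuclear repressor of SMAD activity, had 49.2, 40.1, 56.4 and 42.1 RPM in O1ex to O4ex and 15.6, 5.23, 26.0 and 25.1 in Oc1 to Oc4. All runners lay above all controls, and the difference of 1.27 ± 0.27 did not pass (adjusted p = 0.0888, limma). Map3k7, which encodes the TGF-beta activated kinase TAK1, stood at 85.2 ± 17.5 RPM against 56.0 ± 5.86 in the old controls (0.62 ± 0.14, adjusted p = 0.108). Of 20 such genes tested at each age, 16 differences were positive in old and 15 in young runners, with medians of 0.31 and 0.19 and no call. Over all genes 54.8% of differences were positive in old and 51.5% in young runners, with medians of 0.03 and 0.01. Among receptors and co-receptors (13 tested in old, 14 in young mice, medians 0.29 and 0.36) no gene passed. Acvr1b, the activin type I receptor ALK4 that also carries myostatin signals, had the smallest p in old mice, with 15.8 ± 8.48 RPM in old controls and 5.14 ± 3.4 in old runners (-0.89 ± 0.28, adjusted p = 0.161). Of the 14 other ligand genes, 1 was expressed well enough to be tested in old and 3 in young mice, with no call.

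**Figure D4:**
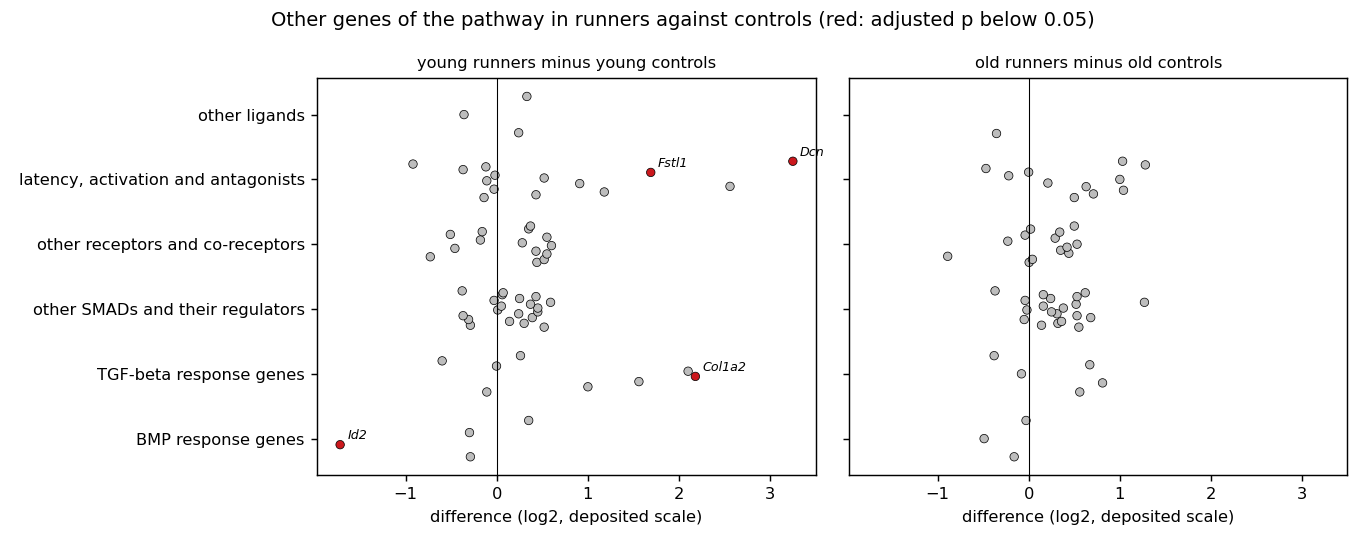
Differences of the other pathway genes tested (log2, deposited scale), one point per gene and one line per list, in young and old runners against controls of their age; red points have an adjusted p under 0.05. In young runners Dcn, Fstl1 and Col1a2 lie to the right and Id2 to the left, and no gene is past the threshold in old runners.

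The genes whose levels ran most like each member were found over the 16 libraries, by Pearson r of log2(RPM + 1) among 9986 genes averaging at least 1 RPM. For Ltbp4 they were Dcn (r = 0.93), Gsn (0.92) and Mcm9 (0.89), of which Dcn and Gsn are fibro-adipogenic markers. With each group centred on its mean, these 3 values were 0.76, 0.72 and 0.81. For Tgfb1 the closest genes were Lims2 (0.94), Emcn (0.91) and Pecam1 (0.91), the last 2 being endothelial markers. Centred by group, their values were 0.92, 0.93 and 0.87. Acvr2b ran closest to Inha (0.88), the gene of an inhibin subunit in the same ligand family. Tgfb2 had r = 0.85 with Fam83g, Slc16a1 and Klf5, and Tgfb3 had 0.93 with Peg13, 0.91 with Pbxip1 and 0.9 with Nrd1. For Mstn the closest were Zscan21 (0.89), Tsr2 (0.86) and Nsmce2 (0.85). Tgfbr1 ran with Psme4 (0.96), Mbnl1 (0.95) and Lpin1 (0.95), Tgfbr2 with Slc38a2 (0.92) and Sgpl1 (0.92), Smad3 with Tacc2 (0.97) and Smad7 with Wapl (0.93). Among the members themselves the highest r was 0.77, between Tgfb3 and Tgfbr1, followed by 0.75 between Tgfbr1 and Smad3. These values describe 16 libraries in 4 groups, where all genes of a library share its depth and scaling, and they carry no test.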

How the data were processed

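RNA of stripped extensor digitorum longus fibres was amplified from 10 ng with SMART-Seq v4, and libraries were made with Ovation Ultralow v2, per the labels' protocols; these kits do not mark strand. For the deposited values, the authors name Trim Galore, STAR, featureCounts of Subread, DESeq2 and mm10 in the submitters' processing notes. Tool versions, annotation and options are not given in the sources used here. For each pair of groups the authors deposited variance-stabilised log2 values in 1 of 4 tables, each normalised separately with its own floor (6.73 to 7.69). The members and lists were chosen with earlier results of these data known.

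limma 3.58.1 (R 4.3.3) compared each pair of groups within the table that holds it, with a variance trend, 2-sided, Benjamini-Hochberg over all genes tested and a threshold of 0.05. A gene entered if 4 or more libraries exceeded the floor by 1 or more. The difference of the running effects was a contrast over both running tables, whose floors differ. Exact permutation tests used the deposited values of 8 libraries.

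The transformation was inverted from each table's floor. Of the values checked above it, 100% came out as whole reads (tolerance 0.02 reads), while the highest counts were not checked in this way. Reads of a gene present in 2 tables were identical. RPM divides these by the library total. RPKM uses exon lengths of GENCODE M21, to which 95.8% of symbols matched. Promoters came from RefSeq, where 8 members had an entry and Smad7 was not looked up. Depth was 30696736 to 67428801 reads per library, and intervals or limits cover counting error only. Replicate numbers that old and young runners share in their labels did not pair libraries. Spreadsheet dates stood in place of 21 symbols per table. Scripts were tested on simulated data.

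Named genes were all 10 members and, per pathway list, called genes (up to 6) or else up to 2 with the smallest p; likeness lists held 3 genes per member. Alternatives were other filters, scalings, weights and moderation, voom on recovered reads, a replicate block and each library left out; for the pathway lists these were added after seeing the data. Marker lists for satellite cells, macrophages, smooth muscle and pericytes, Schwann cells, tenocytes, T and B cells and red cells were summed as well: group means were 111 to 164 RPM, 18.0 to 33.9, 4120 to 5890, 4.88 to 15.0, 31.0 to 47.6, 4.7 to 5.09 and 3.17 to 11.6 respectively (the smooth muscle list includes Des, which fibres express).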

Additional observations from a re-analysis of the deposited data

Results flagged for a closer look

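In each group of 4 libraries the highest and lowest deposited value of every member was compared with its nearest neighbour, over 40 groups, with 0.83 of the group's range as the limit for the gap; chance alone passes about 1 group in 20. In young controls Tgfbr1 was far lowest in Yc4, at 9.82 on the log2 scale (14.9 RPM) with the nearest control at 11.36, a gap of 0.84 of the range. In old controls Tgfb2 was far lowest in Oc1, at 10.71 (29.1 RPM) with the nearest at 11.2, a gap of 0.912. In old runners Mstn was far lowest in O1ex, at 12.26 (90.1 RPM) with the nearest at 12.64, a gap of 0.892.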

How the results depend on the processing

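Members called with running in old mice went from 0 to 2 with library weights (Tgfb3 and Tgfbr1) and stayed 0 otherwise. With these weights 7.34% of all genes tested passed in old mice and 13.1% in young mice, against 0.128% and 0.762% without them. In young mice the count of 1 went to 0 without a filter on low values, without a variance trend and with voom, to 3 with library weights (2 higher, 1 lower), and to 0 to 1 with each library left out; it was 0 without Y1ex, Y2ex, Y3ex, Y4ex, Yc5, Yc7 or Yc8. Counts for age and for the difference of the running effects were 0 in every alternative. The Ltbp4 difference in young mice had an adjusted p of 0.0885 without a filter, 0.0502 without a trend and 0.148 with voom (5.71 log2, a scale that does not shrink low counts).

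Other pathway genes called in young mice numbered 4, and 2 without a filter, 7 with median centring, 7 with quantile normalisation, 11 with library weights, 1 with voom and 0 to 4 with each library left out. In old mice they numbered 0, and 7 with library weights and 0 to 3 with each library left out (above 0 without Oc1 or Oc3); between controls library weights gave 1. Over all genes, calls numbered 1 to 688 in old mice (12 as reported), 0 to 1394 in young mice (81), 3 to 461 between controls (11), 0 to 7 between runners (2) and 0 to 7 for the difference of the running effects (0). Higher and lower calls split 7 to 5 in old mice, 11 to 12 with median centring, 9 to 15 with quantile normalisation and 508 to 180 with library weights; in young mice they split 30 to 51, and 735 to 659 with weights.

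Of 763 recomputed member differences 699 kept their direction and side of the threshold and 50 changed sign, all of them for differences that had not passed. With library weights Mstn in young mice was 0.03, Acvr2b between controls -0.28, Smad7 between controls 0.04, Tgfbr1 between runners -0.13 and Smad7 between runners -0.05. Quantile normalisation gave Smad7 between controls 0.01, median centring gave the Tgfb3 difference of running effects -0.0037, and voom gave that of Tgfbr2 0.08. With each library left out, running in young mice gave -0.27 to 0.02 for Mstn, -0.05 to 0.57 for Tgfbr1 and -0.06 to 0.29 for Smad3. Between controls Tgfb2 gave -0.06 to 0.24, Acvr2b -0.25 to 0.27 and Smad7 -0.21 to 0.28. Between runners Tgfb2 gave -0.29 to 0.09, Mstn -0.02 to 0.16, Tgfbr1 -0.13 to 0.31, Acvr2b -0.13 to 0.13 and Smad7 -0.06 to 0.27. For the difference of running effects Tgfb3 gave -0.15 to 0.32, Mstn -0.24 to 0.05, Tgfbr2 -0.11 to 0.14, Acvr2b -0.25 to 0.34, Smad3 -0.08 to 0.41 and Smad7 -0.12 to 0.34. Running differences also moved by over 1.5 times without changing sign: in old mice Smad3 was 0.55 without O1ex and 0.53 without Oc1; in young mice Mstn was -0.04 without Y3ex, Tgfbr1 0.17 without Y4ex and 0.23 without Y2ex, Tgfbr2 0.2 without Yc8, Acvr2b -0.17 without Yc7 and -0.25 without Yc5, and Smad7 0.12 without Y4ex to 0.53 without Y3ex. The cause of these changes was not tested.

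With the replicate number of the runners as a block, 0 members passed between old and young runners, as without it. Same-numbered runners correlated at -0.24, 0.092, -0.398 and -0.044 in their deviations from the group mean. No pairing by number was seen, though so few correlations cannot exclude one. Leaving mitochondrial genes and the 10 most abundant genes out of the denominator multiplied member levels by 1.25 to 1.3. Ltbp4 and Tgfb1 rest on few reads in the control libraries, so their ratios are the least certain of the set.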
